A study of Mus musculus with 14 samples.

Results

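The genes described here are 10 genes that carry iron and zinc through the intestinal epithelial cell or bind these metals inside it. They were chosen by name from textbook knowledge of metal handling, with earlier results of these data known: *Slc11a2*, *Cybrd1*, *Slc40a1*, *Heph*, *Tfrc*, *Fth1*, *Ftl1*, *Mt1*, *Mt2* and *Slc39a4*. All 10 were found among the 18781 genes of the deposited table, and all 10 passed the filter on low values that left 12802 genes for testing.

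RNA was sequenced from mouse small intestinal organoids, which are epithelial cultures grown from crypts, kept in IntestiCult medium without further treatment. WT organoids (n = 4) carried floxed alleles of both genes and no Cre recombinase, labelled ATG16L1flox/flox_RNaseH2Bflox/flox. *Atg16l1* ΔIEC organoids (n = 4, ATG16L1flox/flox_VillinCre+/-) lack the autophagy gene *Atg16l1*, *Rnaseh2b* ΔIEC organoids (n = 2, RNaseH2Bflox/flox_VillinCre+/-) lack a subunit of the enzyme that removes ribonucleotides from DNA, and the double-knockout *Atg16l1/Rnaseh2b* ΔIEC organoids (n = 4) carry both floxed pairs with VillinCre+/-. The Villin promoter drives Cre in intestinal epithelial cells, and Cre was absent from WT only, so the presence of Cre and the loss of a gene cannot be told apart against WT. The ages of the mice are not given in the sources used here, and nothing in the labels says whether libraries of a genotype came from separate mice, so p-values measure the spread between these libraries. Values are normalized expression on a log2 scale, in which a difference of 1 is a doubling, and the depth of each library is unknown.

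Enterocytes take up dietary iron at the brush border. *Cybrd1* reduces it, *Slc11a2* imports it, ferritin, made of the chains *Fth1* and *Ftl1*, stores it, and *Slc40a1* (ferroportin) exports it to the blood with the help of the oxidase *Heph*. *Tfrc*, the transferrin receptor, takes iron up from the blood side. When iron is scarce, iron regulatory proteins bind a stem-loop in these RNAs, the iron-responsive element. In the 5′ UTR the binding blocks translation, and in the 3′ UTR of *Tfrc* it stabilises the RNA. Zinc enters through *Slc39a4*, and the metallothioneins *Mt1* and *Mt2*, which bind zinc and copper, are switched on by the zinc-sensing factor *Mtf1* at metal-responsive elements. Ferritin itself is broken down by autophagy, with *Ncoa4* as its receptor.

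The stem-loops are shown because matches to a pattern for them were found in 4 of the iron genes. The GENCODE M21 transcripts (GRCm38) were searched on the sense strand for C, any 5 bases, the loop CAGTGN, and 5 bases able to pair with the first 5. Such a match lay in a UTR of 4 of the 10 genes and of 1.01% of 15753 coding genes of the table, in the 5′ UTR of 0.184% and in the 3′ UTR of 0.825%. A match is a description of the letters and not a tested site. The pattern allows no unpaired base among these 5, so elements with an imperfect stem are missed. A gene without a match may still hold an element, and a gene with matches may hold more. Each is printed as 30 bases, 5′ to 3′, with the loop in capitals. The first 3 lie in 5′ UTR exons, at chr19:9982732-9982761 on the plus strand, chr7:45459778-45459807 on the minus strand and chr1:45925464-45925493 on the minus strand, and the 4 of *Tfrc* lie in its 3′ UTR exon on the plus strand, starting at 32631219, 32631598, 32631663 and 32631710 of chromosome 16.
Fth1: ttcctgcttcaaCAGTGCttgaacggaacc
Ftl1: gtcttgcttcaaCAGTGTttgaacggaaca
Slc40a1: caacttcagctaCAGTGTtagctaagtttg
Tfrc site 1: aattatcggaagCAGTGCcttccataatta
Tfrc site 2: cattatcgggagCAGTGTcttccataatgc
Tfrc site 3: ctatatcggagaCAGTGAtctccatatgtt
Tfrc site 4: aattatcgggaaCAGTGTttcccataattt

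Several features of the whole table bear on the results. Mean *Atg16l1* (± SD) was 9.46 ± 0.05 in WT, 6.92 ± 0.29 where *Atg16l1* was deleted, 9.52 ± 0.01 where *Rnaseh2b* was, and 8.39 ± 0.19 in the double knockout. *Rnaseh2b* was at 8.54 ± 0.13, 8.62 ± 0.11, 7.18 ± 0.04 and 7.81 ± 0.10 (SD) in the same order, so each targeted gene was lower where it was deleted, and both were higher in the double than in the single knockout (limma adjusted p = 2.0e-05 and 0.00074). The double knockout kept 0.475-fold of the WT level of *Atg16l1*, and *Rnaseh2b* deletion lowered *Rnaseh2b* by a log2 difference of -0.81 there against *Atg16l1* ΔIEC and by -1.36 against WT in the single knockout (difference of effects 0.55, limma adjusted p = 0.0037). Each difference of effects given here thus compares groups with unequal loss of the target RNAs, and the part of that loss was not tested. The names of the libraries give a lane, which was 1 for WT, 2 for both single knockouts, and either lane, with 2 libraries each, for the double knockout. Libraries 1 and 2 of a genotype deviated together from its mean, as did libraries 3 and 4 (correlations over genes from 0.31 to 0.85 in the 3 genotypes with 4 libraries), and shared their sex by *Xist* and Y-linked genes. In the double-knockout organoids lane, pair and sex coincide and cannot be told apart. Each difference was therefore also fitted with lane as a covariate and with the libraries of a pair treated as correlated. The lane term comes only from the double knockout, its 2 libraries of lane 1 against its 2 of lane 2, and holds their pair and sex too. Within lane 1, WT libraries 3 and 4 also differed from 1 and 2, by -0.43 in *Cybrd1* and -1.76 in *Slc40a1*. A call kept, lost or turned with lane therefore does not separate lane from pair or sex. Lost calls are given beside the results of the 10 genes, where 8 of 19 calls passed with lane and 4 of 19 with correlated pairs (2 of *Fth1*, 1 of *Tfrc* and 1 of *Mt1*). All 13 enterocyte markers passed the filter, with a summed level (log2) of 17.71 to 18.33 in WT, 17.95 to 18.68 in *Atg16l1* ΔIEC, 18.75 to 18.88 in *Rnaseh2b* ΔIEC and 17.44 to 17.97 in double-knockout libraries. Of 13 stromal and immune markers, 3 passed, and *Col1a1*, *Pdgfra*, *Ptprc* and *Cd3e* were below the filter.

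Against WT, 5 of the 10 genes differed in *Rnaseh2b* ΔIEC organoids, 2 differed in *Atg16l1* ΔIEC organoids and 3 in the double knockout (limma, Benjamini-Hochberg adjusted p under 0.05). These comparisons share the 4 WT libraries. The share of all tested genes past the same threshold was 26.7%, 19.1% and 16.1%, so the count of 2 is about what that background gives, and with 10 genes the other counts are only a few genes above it. The double knockout differed from *Rnaseh2b* ΔIEC in 3 of the 10 genes (background 25.5%) and from *Atg16l1* ΔIEC in 1 (background 25.1%), and the single knockouts differed from each other in 1 (background 6.81%). The effect of *Rnaseh2b* deletion differed between the deleted and the intact *Atg16l1* background in 4 of the 10 genes (background 35.1%). The median log2 difference of the 10 genes from WT was -0.09 for *Rnaseh2b* ΔIEC, 0.00 for *Atg16l1* ΔIEC and -0.02 for the double knockout, against 0.00 over all tested genes in each. The libraries of the groups compared did not overlap in 8 of the 10 genes for *Rnaseh2b* ΔIEC against WT (55.5% of all genes), 3 for *Atg16l1* ΔIEC (24.6%) and 1 for the double knockout (22.3%), and in 4 for the double knockout against *Rnaseh2b* ΔIEC (49.9%) and 1 against *Atg16l1* ΔIEC (23.9%). The genes did not move as a group, and the account below follows their roles.

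**Figure D1:**
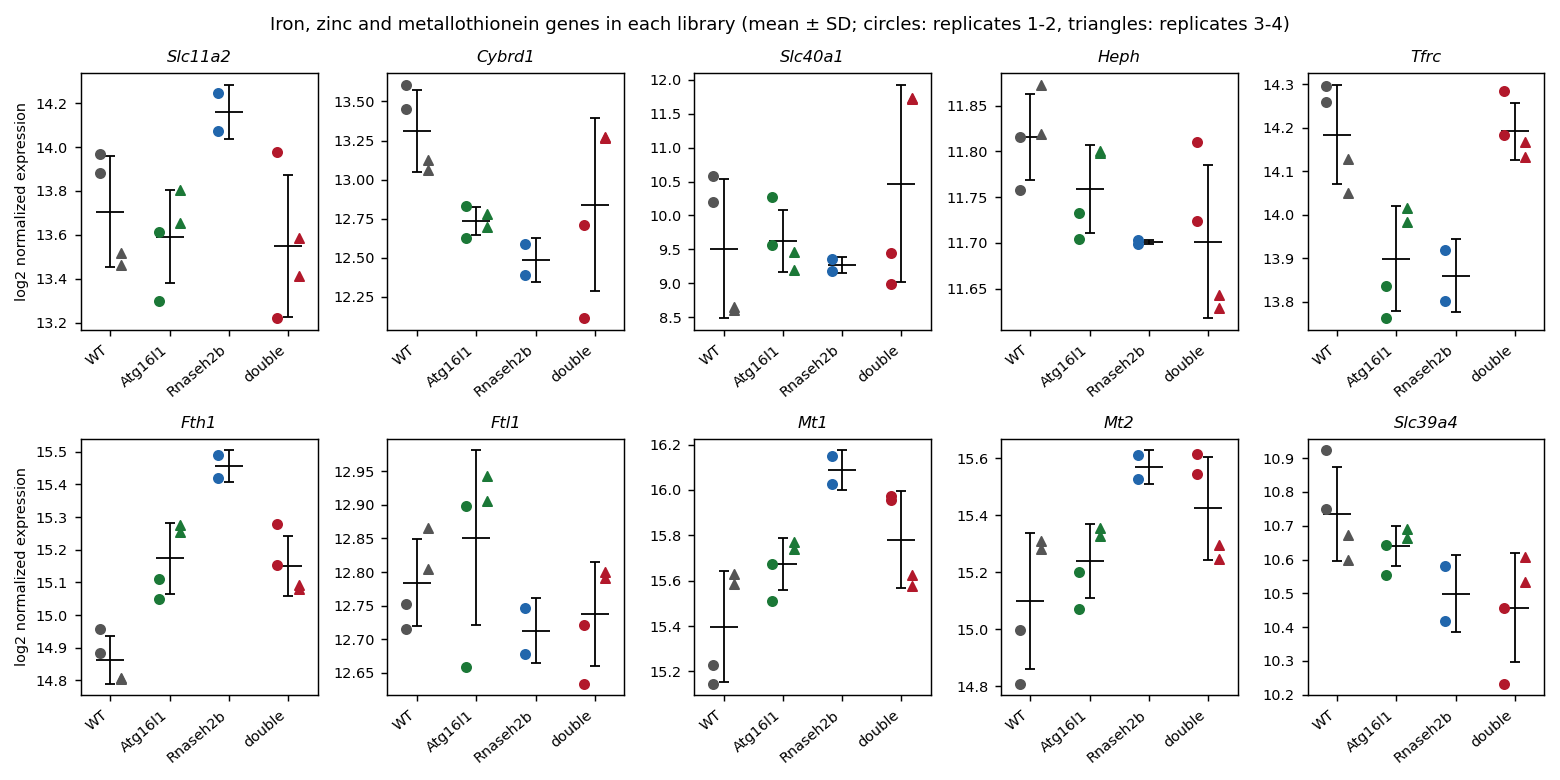
Log2 normalized expression of the 10 genes in each library, by genotype (WT, *Atg16l1* ΔIEC, *Rnaseh2b* ΔIEC and the double knockout), with the mean and SD in black; circles are replicates 1 and 2 and triangles replicates 3 and 4. *Fth1* is above WT in every knockout library, *Tfrc* is below WT in the single knockouts only, and *Slc40a1* splits by pair, from 8.99 to 11.72 within the double knockout.

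Of the 2 ferritin chains, *Fth1* was higher than in WT in each knockout genotype and *Ftl1* passed the test in none. *Fth1* encodes the ferritin heavy chain, which oxidises iron for storage (19:9980598-9985098). It read 14.89, 14.96, 14.81 and 14.80 in WT, 15.11, 15.05, 15.28 and 15.26 in *Atg16l1* ΔIEC, 15.49 and 15.42 in *Rnaseh2b* ΔIEC, and 15.15, 15.28, 15.09 and 15.08 in double-knockout libraries. Every knockout library was above every WT library, and the *Rnaseh2b* ΔIEC libraries were the highest of all 14. *Fth1* rose by a log2 difference of 0.59 (SE 0.08, limma adjusted p = 0.00022) in *Rnaseh2b* ΔIEC, or 1.51-fold, by 0.31 (SE 0.06, adjusted p = 0.0046) in *Atg16l1* ΔIEC and by 0.29 (SE 0.06, adjusted p = 0.01) in double-knockout organoids. Deletion of both genes gave less *Fth1* than deletion of *Rnaseh2b* alone, with a log2 difference of -0.30 (SE 0.08, limma adjusted p = 0.012), while the double knockout and *Atg16l1* ΔIEC differed by -0.02 (95% interval -0.16 to 0.11, limma adjusted p = 0.82). *Rnaseh2b* ΔIEC was also above *Atg16l1* ΔIEC by 0.28 (SE 0.08, limma adjusted p = 0.043). The effect of *Rnaseh2b* deletion on *Fth1* was smaller by 0.62 (log2 difference of differences -0.62, SE 0.10, limma adjusted p = 0.00059) where *Atg16l1* was deleted too.

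With lane in the fit the rise of *Fth1* in *Rnaseh2b* ΔIEC was 0.46 (limma adjusted p = 0.017), those in *Atg16l1* ΔIEC and double-knockout organoids were 0.18 (adjusted p = 0.24) and 0.22 (adjusted p = 0.059), and the difference of effects was -0.42 (adjusted p = 0.066). Within lane 1 alone the double knockout was above WT by 0.22 (limma adjusted p = 0.045), and within lane 2 alone it was below *Rnaseh2b* ΔIEC by a log2 difference of -0.24 (limma adjusted p = 0.087). Without replicate 1 or 2 of *Rnaseh2b* ΔIEC the rise over WT was 0.56 or 0.63 (limma adjusted p = 0.0077 and 0.0046), but the differences from the double knockout (adjusted p = 0.11 and 0.07) and from *Atg16l1* ΔIEC (adjusted p = 0.3 and 0.21) no longer passed. The latter was also lost without *Atg16l1* ΔIEC replicate 1, 2 or 4 (adjusted p from 0.053 to 0.092). With paired libraries treated as correlated, the calls of *Fth1* in *Rnaseh2b* ΔIEC and in the difference of effects passed (adjusted p = 0.0046 and 0.0096 with an estimated correlation), and the other 4 calls of *Fth1* did not (0.059 to 0.34). The enterocyte markers were higher beside *Fth1* in *Rnaseh2b* ΔIEC organoids, where 11 of 13 were higher than in WT (median log2 difference 1.03). In the double knockout against *Rnaseh2b* ΔIEC, where *Fth1* was lower, 12 of 13 were lower. In *Atg16l1* ΔIEC against WT, where *Fth1* was higher, 2 of 13 were higher and 0 lower (median 0.25). In the double knockout against WT, where *Fth1* was also higher, 1 of 13 was higher and 3 were lower (median -0.28). Over all tested genes the share past the threshold was 26.7%, 25.5%, 19.1% and 16.1% in that order. The part of the markers in the *Fth1* difference was not tested. In a bulk culture, more cells of a type and more RNA per cell cannot be told apart.

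*Ftl1*, the ferritin light chain (7:45457944-45459884), had 0 calls at adjusted p 0.05 in the 7 comparisons. It ranged from 12.63 to 12.94 over all 14 libraries, with means of 12.78 ± 0.07 in WT, 12.85 ± 0.13 in *Atg16l1* ΔIEC, 12.71 ± 0.05 in *Rnaseh2b* ΔIEC and 12.74 ± 0.08 in double-knockout organoids (SD). The groups overlapped in each comparison. Against WT, the difference in *Rnaseh2b* ΔIEC organoids was -0.07 (95% interval -0.23 to 0.09, limma adjusted p = 0.49), an interval that does not reach the *Fth1* difference of 0.59. GENCODE lists pseudogenes of both chains by name, *Fth*-ps2, *Fth*-ps3, *Ftl1*-ps2 and Ftl2-ps, and the table holds none of them. Whether the counting split reads with such copies was not tested, so both levels are uncertain to that extent.

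The RNA of the transferrin receptor moved opposite to that of *Fth1* in the single knockouts. *Tfrc* (16:32608920-32632794) read 14.30, 14.26, 14.13 and 14.05 in WT, 13.84, 13.76, 14.02 and 13.98 in *Atg16l1* ΔIEC, 13.80 and 13.92 in *Rnaseh2b* ΔIEC, and 14.18, 14.29, 14.17 and 14.13 in double-knockout libraries. All 6 single-knockout libraries were below all 8 others, and the double knockout overlapped WT. *Tfrc* fell by 0.32 (log2, SE 0.08, limma adjusted p = 0.011) in *Rnaseh2b* ΔIEC and by 0.29 (SE 0.07, limma adjusted p = 0.01) in *Atg16l1* ΔIEC organoids. In the double knockout it differed from WT by 0.01 (95% interval -0.14 to 0.15, limma adjusted p = 0.95). It was higher there than in *Rnaseh2b* ΔIEC by 0.33 (SE 0.08, limma adjusted p = 0.011) and than in *Atg16l1* ΔIEC by 0.29 (SE 0.07, limma adjusted p = 0.008). Between the *Atg16l1* backgrounds the *Rnaseh2b* effect on *Tfrc* changed by 0.62 (SE 0.11, limma adjusted p = 0.00085).

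The *Tfrc* calls passed with lane in the fit, at -0.41 and -0.37 against WT (limma adjusted p = 0.048 and 0.05) and at 0.74 for the difference of effects (adjusted p = 0.012). That fit takes its lane term from the double knockout alone, where lane, pair and sex coincide. Within lane 2 the double knockout was above *Rnaseh2b* ΔIEC by 0.37 (limma adjusted p = 0.023) and above *Atg16l1* ΔIEC by 0.34 (adjusted p = 0.019). With paired libraries treated as correlated the difference of effects passed (adjusted p = 0.012 with an estimated correlation) and the other 4 calls of *Tfrc* did not (0.074 to 0.098). Without replicate 1 of *Rnaseh2b* ΔIEC the fall of *Tfrc* there had a limma adjusted p of 0.13, and its difference from the double knockout had 0.12, or 0.052 without replicate 2. Genes that respond to low oxygen, a list that does not hold *Tfrc*, were more often lower than higher. Against WT 15 of 19 were lower and 1 higher in *Rnaseh2b* ΔIEC (median log2 difference -0.68). In *Atg16l1* ΔIEC 12 were lower and 1 higher (median -0.70), and in double-knockout organoids 6 were lower (median -0.24). Over all tested genes 12.3%, 10.4% and 8.01% were lower in that order. The counts of this list were not repeated with lane in the fit. Its summed level was 17.32 to 17.38 in WT, 16.91 to 16.98 in *Atg16l1* ΔIEC, 16.92 to 16.96 in *Rnaseh2b* ΔIEC and 16.89 to 17.31 in double-knockout libraries. The double-knockout sums ran from below every single-knockout sum to above every one of them, and *Tfrc* in the double knockout was above every single-knockout library. The part of the list in the *Tfrc* difference was not tested.

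The difference between *Fth1* and *Tfrc* within a library does not depend on how libraries were scaled. This measure was chosen after the values had been seen and carries no test. It was 0.68 ± 0.07 in WT, 0.96 ± 0.03 in double-knockout, 1.27 ± 0.01 in *Atg16l1* ΔIEC and 1.60 ± 0.13 in *Rnaseh2b* ΔIEC organoids (log2, SD). The 4 genotypes did not overlap: the ranges were 0.59 to 0.75, 0.92 to 0.99, 1.26 to 1.29 and 1.5 to 1.69. How many other pairs of genes separate the genotypes as fully was not counted. Groups without overlap were common among single genes, at 55.5% for *Rnaseh2b* ΔIEC against WT and 49.9% for the double knockout against *Rnaseh2b* ΔIEC. Within *Atg16l1* ΔIEC organoids the pairs differed by 0.19 in *Fth1* and by 0.20 in *Tfrc* in the same direction, so the difference varied less than either gene did.

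**Figure D2:**
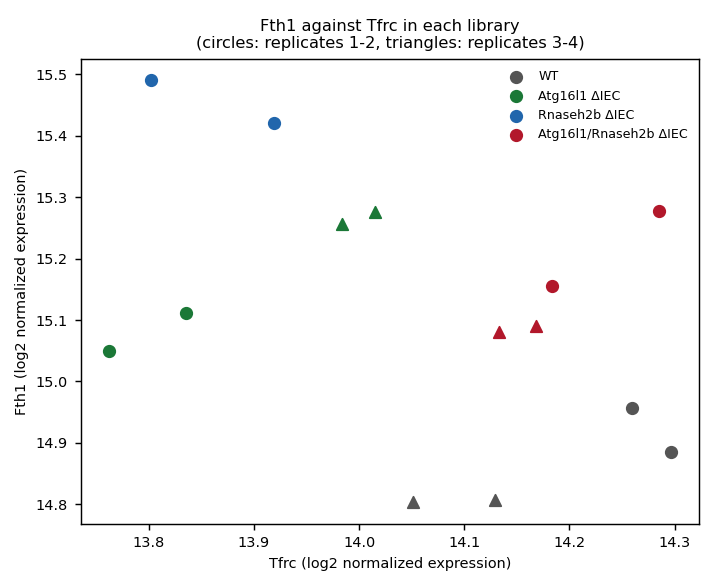
Log2 normalized expression of *Fth1* (vertical) against *Tfrc* (horizontal) in each of the 14 libraries, coloured by genotype, with circles for replicates 1 and 2 and triangles for replicates 3 and 4. WT libraries lie at the lower right with *Fth1* from 14.80 to 14.96, the *Rnaseh2b* ΔIEC libraries at the upper left with *Fth1* of 15.42 and 15.49, and the double knockout has *Tfrc* levels of WT with *Fth1* from 15.08 to 15.28.

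At the brush border the differences of the reductase and the importer from WT had opposite signs in *Rnaseh2b* ΔIEC organoids. Only that of the reductase passed, and it was lost with lane in the fit. *Cybrd1* (2:71117923-71142926) read 13.61, 13.45, 13.12 and 13.06 in WT, 12.63, 12.83, 12.70 and 12.78 in *Atg16l1* ΔIEC, 12.39 and 12.58 in *Rnaseh2b* ΔIEC, and 12.11, 12.71, 13.27 and 13.26 in double-knockout libraries. Every single-knockout library was below every WT library, as were libraries 1 and 2 of the double knockout, while its libraries 3 and 4 lay inside the WT range. *Cybrd1* was lower by a log2 difference of -0.83 (SE 0.26, limma adjusted p = 0.031) in *Rnaseh2b* ΔIEC organoids. Its difference from WT was -0.58 (limma adjusted p = 0.069) in *Atg16l1* ΔIEC and -0.47 (adjusted p = 0.14) in double-knockout organoids, neither past the threshold. Between the *Atg16l1* backgrounds the *Rnaseh2b* effect on *Cybrd1* differed by 0.93 (SE 0.33, limma adjusted p = 0.043). All 8 libraries of lane 2 were below all 6 libraries of lane 1: with lane in the fit the *Rnaseh2b* ΔIEC difference was 0.03 (limma adjusted p = 0.94), the *Atg16l1* ΔIEC difference 0.28 (adjusted p = 0.44) and the difference of effects -0.35 (adjusted p = 0.48). For *Cybrd1*, lane and genotype cannot be told apart. The fall in *Rnaseh2b* ΔIEC was also lost without either of its libraries (limma adjusted p = 0.2 and 0.1) or without WT replicate 1 or 2 (adjusted p = 0.064 and 0.062), and the difference of effects without any of 10 libraries (adjusted p from 0.051 to 0.15), all but WT replicates 3 and 4 and double-knockout replicates 1 and 2. Both calls were lost with paired libraries treated as correlated (adjusted p = 0.15 and 0.16 with an estimated correlation).

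*Slc11a2*, the importer (15:100387898-100425072), read 13.97, 13.88, 13.52 and 13.46 in WT, 13.30, 13.61, 13.81 and 13.65 in *Atg16l1* ΔIEC, 14.07 and 14.25 in *Rnaseh2b* ΔIEC, and 13.22, 13.98, 13.41 and 13.59 in double-knockout libraries. The *Rnaseh2b* ΔIEC libraries were the highest of all 14. Against WT they were higher by 0.45 (SE 0.19, limma adjusted p = 0.1), which did not pass. Their libraries did not overlap with WT. The double knockout was lower than *Rnaseh2b* ΔIEC by a log2 difference of -0.61 (SE 0.19, limma adjusted p = 0.035), and this call was lost with lane (adjusted p = 0.082), sex (adjusted p = 0.065) or within lane 2 (adjusted p = 0.11), and without either *Rnaseh2b* ΔIEC library (adjusted p = 0.1 and 0.24) or double-knockout replicate 1, 3 or 4 (adjusted p from 0.052 to 0.072). With paired libraries treated as correlated it was lost too (adjusted p = 0.3 with an estimated correlation). Against *Atg16l1* ΔIEC, *Rnaseh2b* ΔIEC organoids were higher by 0.57 (limma adjusted p = 0.099), with both groups in lane 2. The enterocyte markers were also highest in the *Rnaseh2b* ΔIEC libraries, and their part in the *Slc11a2* values was not tested. An exon of *Slc11a2* overlaps *Gm5475* on the opposite strand, and whether the counting used the strand is not given in the sources used here.

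**Figure D3:**
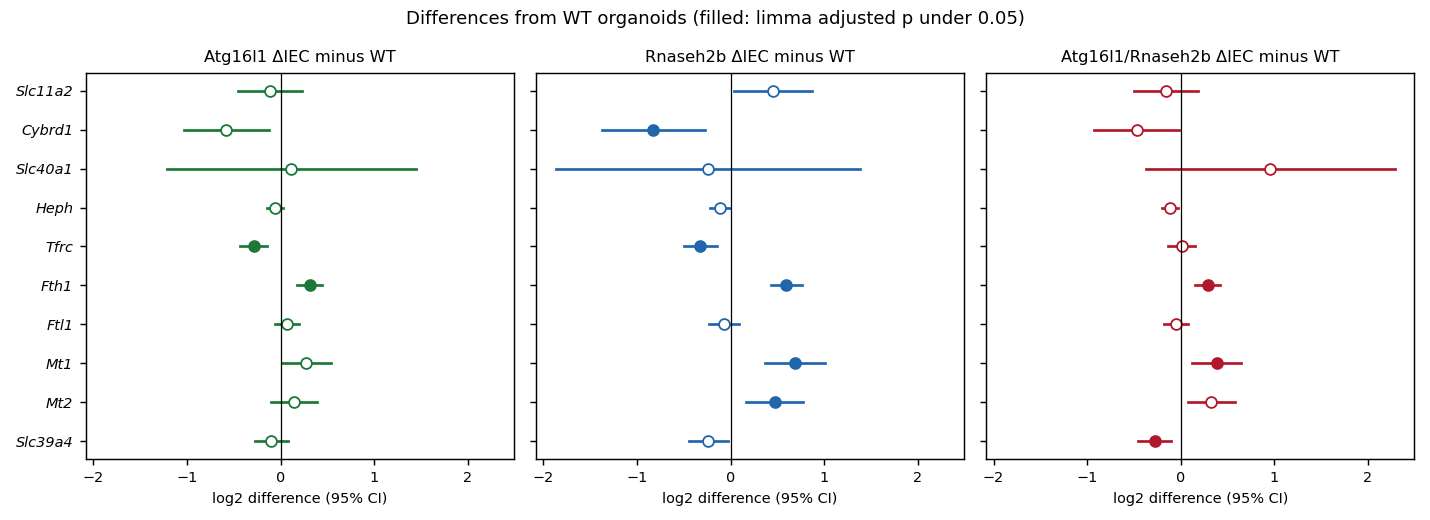
Log2 difference from WT with its 95% confidence interval for each of the 10 genes in *Atg16l1* ΔIEC, *Rnaseh2b* ΔIEC and double-knockout organoids; filled points passed limma adjusted p 0.05. *Fth1* is filled in all 3 panels, from 0.29 to 0.59, and the interval of *Slc40a1* is the widest in each.

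*Slc40a1*, the exporter, differed most between pairs of libraries of a single genotype. The gene (1:45908068-45926523) read 10.58, 10.19, 8.65 and 8.61 in WT, 9.56, 10.27, 9.46 and 9.20 in *Atg16l1* ΔIEC, 9.18 and 9.35 in *Rnaseh2b* ΔIEC, and 8.99, 9.45, 11.72 and 11.71 in double-knockout libraries. Libraries 3 and 4 were 1.76 below libraries 1 and 2 in WT and 2.50 above them in the double knockout, which rank 9 and 8 in size among the gaps between pairs of the 12802 tested genes in each of these genotypes. Libraries of one pair differed by 0.01 to 0.71 (median 0.26). Against WT the double knockout was higher by 0.96 (95% interval -0.37 to 2.29, limma adjusted p = 0.3), which did not pass. With lane in the fit this became 2.21 (limma adjusted p = 0.012), and within lane 1 alone 2.21 (adjusted p = 0.056), where it rests on libraries 3 and 4 of the double knockout. Against *Rnaseh2b* ΔIEC the double knockout differed by 1.20 (limma adjusted p = 0.26) in all libraries and by -0.05 (adjusted p = 0.92) within lane 2. Against *Atg16l1* ΔIEC the values were 0.84 (adjusted p = 0.33) and -0.40 (adjusted p = 0.26).

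*Heph*, the oxidase that works beside *Slc40a1* (X:96455359-96574485), varied little. Its means were 11.82 ± 0.05 in WT, 11.76 ± 0.05 in *Atg16l1* ΔIEC, 11.70 ± 0.00 in *Rnaseh2b* ΔIEC and 11.70 ± 0.08 in double-knockout organoids (log2, SD), and all 14 libraries lay between 11.63 and 11.87. The differences of -0.12 (limma adjusted p = 0.11) in *Rnaseh2b* ΔIEC and -0.11 (adjusted p = 0.071) in the double knockout did not pass. Both passed once lane was in the fit, at -0.25 (limma adjusted p = 0.021) and -0.18 (adjusted p = 0.012). An exon of *Heph* overlaps *Hsf3* on the opposite strand.

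The metallothionein genes *Mt1* (8:94179082-94180327) and *Mt2* (8:94172664-94173568) lie next to each other, 5513 bases apart. The 250 bases before their RefSeq starts (GRCm38.p6, plus strand) are shown because both genes moved together. Capitals mark the metal-responsive core, TGCACNC or TGCGCNC, searched on both strands, with every match counted, overlapping or not. *Mt1* has 1 match at chr8:94178839-94179088 and *Mt2* has 3 at chr8:94172368-94172617. These counts hold only for the windows printed. Bases before and after them were not searched, and the *Mt2* window ends before the start of the gene given above. How many such cores each gene has in all is therefore not known from this search. At least 1 match was found in 21.4% and at least 3 in 1.26% of 32851 promoters of that length. Promoters were on hand for 6 of the 10 genes, and *Cybrd1*, *Fth1* and *Ftl1* had 0 matches. *Tfrc* had 2 overlapping matches in 1 of its 2 promoters, as many as 5.17% of promoters hold or exceed, and 0 in the other.
Mt1: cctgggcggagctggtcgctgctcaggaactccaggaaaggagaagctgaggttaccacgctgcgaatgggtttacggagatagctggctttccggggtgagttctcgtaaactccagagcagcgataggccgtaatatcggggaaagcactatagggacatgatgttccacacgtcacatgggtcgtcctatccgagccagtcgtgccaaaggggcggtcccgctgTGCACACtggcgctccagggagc
Mt2: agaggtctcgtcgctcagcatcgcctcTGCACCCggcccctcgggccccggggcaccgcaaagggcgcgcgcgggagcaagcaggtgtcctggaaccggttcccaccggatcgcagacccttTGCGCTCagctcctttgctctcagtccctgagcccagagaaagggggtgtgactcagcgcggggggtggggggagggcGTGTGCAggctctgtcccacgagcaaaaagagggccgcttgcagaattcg

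*Mt1* read 15.15, 15.23, 15.59 and 15.63 in WT, 15.51, 15.67, 15.77 and 15.74 in *Atg16l1* ΔIEC, 16.15 and 16.03 in *Rnaseh2b* ΔIEC, and 15.97, 15.95, 15.62 and 15.57 in double-knockout libraries. The *Rnaseh2b* ΔIEC libraries were above all others, and the remaining groups overlapped. *Mt1* rose by 0.69 (log2, SE 0.15, limma adjusted p = 0.0052) in *Rnaseh2b* ΔIEC, or 1.61-fold, and by 0.38 (SE 0.12, limma adjusted p = 0.047) in double-knockout organoids. The difference in *Atg16l1* ΔIEC organoids was 0.28 (limma adjusted p = 0.13). The effect of *Rnaseh2b* deletion was smaller where *Atg16l1* was deleted too, with a log2 difference of differences of -0.58 (SE 0.19, limma adjusted p = 0.031), while the double knockout against *Rnaseh2b* ΔIEC gave -0.31 (adjusted p = 0.15).

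*Mt2* read 14.81, 14.995, 15.28 and 15.31 in WT, 15.07, 15.20, 15.36 and 15.33 in *Atg16l1* ΔIEC, 15.61 and 15.53 in *Rnaseh2b* ΔIEC, and 15.61, 15.54, 15.29 and 15.25 in double-knockout libraries. It rose by 0.47 (SE 0.14, limma adjusted p = 0.026) in *Rnaseh2b* ΔIEC organoids and differed by 0.33 (limma adjusted p = 0.069) in the double knockout. Libraries 3 and 4 of WT were above libraries 1 and 2 by 0.42 in *Mt1* and 0.39 in *Mt2*, and those of the double knockout were below by a log2 gap of -0.36 and -0.31. These gaps are close in size to the differences of the double knockout from WT. The enterocyte markers rose in *Rnaseh2b* ΔIEC organoids beside *Mt1* and *Mt2*, and their part was not tested. With lane in the fit the *Rnaseh2b* ΔIEC difference was 0.33 for *Mt1* (limma adjusted p = 0.27) and 0.16 for *Mt2* (adjusted p = 0.6), and within lane 1 the double knockout was above WT by 0.20 for *Mt1* (adjusted p = 0.39). The difference of effects of *Mt1* was -0.04 with lane in the fit (limma adjusted p = 0.94). Without replicate 1 of *Rnaseh2b* ΔIEC the rises of *Mt1* and *Mt2* had limma adjusted p of 0.068 and 0.17, and that of *Mt2* had 0.1 without replicate 2 and 0.056 without WT replicate 2. The rise of *Mt1* in the double knockout was lost without replicate 1 or 2 of either group (adjusted p from 0.12 to 0.14), and its difference of effects without 8 of the libraries (adjusted p from 0.051 to 0.13), all but WT replicates 3 and 4 and replicates 1 and 2 of *Atg16l1* ΔIEC and of the double knockout. With paired libraries treated as correlated the *Mt1* rise in *Rnaseh2b* ΔIEC passed (adjusted p = 0.027 with an estimated correlation), that of *Mt2* did not (0.1), and the *Mt1* calls in the double knockout and the difference of effects did not (0.19 and 0.092).

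Within a library *Mt1* minus *Mt2* was 0.30 ± 0.05 in WT, 0.36 ± 0.04 in double-knockout, 0.43 ± 0.03 in *Atg16l1* ΔIEC and 0.52 ± 0.03 in *Rnaseh2b* ΔIEC organoids (log2, SD). The *Rnaseh2b* ΔIEC libraries (0.50 and 0.54) were above all others, whose highest value was 0.47, and the double knockout overlapped WT. This measure was chosen after the values were seen, and how many other pairs of genes separate the groups so was not counted. Over the 14 libraries each was the gene most like the other of all those tested (Pearson r = 0.97), as a description over libraries that share their pair and lane.

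*Slc39a4*, the zinc importer of the brush border (15:76612383-76617384), read 10.92, 10.75, 10.60 and 10.67 in WT, 10.55, 10.64, 10.69 and 10.66 in *Atg16l1* ΔIEC, 10.42 and 10.58 in *Rnaseh2b* ΔIEC, and 10.23, 10.46, 10.53 and 10.61 in double-knockout libraries. It fell by 0.28 (log2, SE 0.08, limma adjusted p = 0.034) in the double knockout, where the lowest WT library was just below the highest knockout library. The *Rnaseh2b* ΔIEC difference of -0.24 (limma adjusted p = 0.091) did not pass. The call in the double knockout was lost with lane in the fit (-0.17, limma adjusted p = 0.22), within lane 1 (adjusted p = 0.24) and with paired libraries treated as correlated (adjusted p = 0.28 with an estimated correlation). It was also lost without replicate 1 or 2 of either group (limma adjusted p from 0.067 to 0.099).

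**Figure D4:**
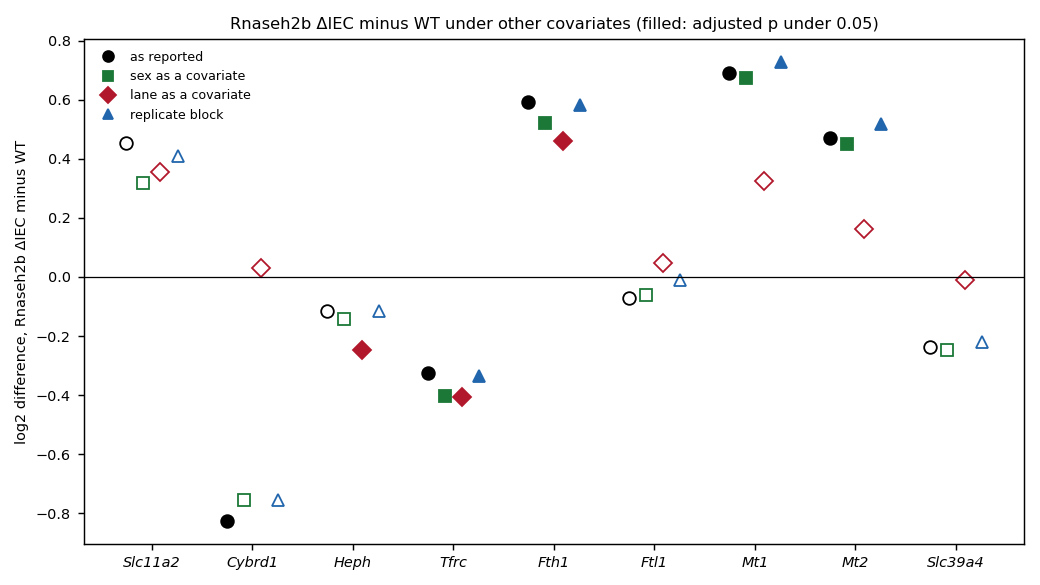
Log2 difference of *Rnaseh2b* ΔIEC from WT for 9 of the 10 genes, as reported and with sex, lane or replicate number added to the fit; filled symbols passed adjusted p 0.05. *Fth1* (0.59, 0.46 with lane) and *Tfrc* (-0.32, -0.41 with lane) are filled under each, and *Cybrd1* moves from -0.83 to 0.03 with lane.

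Levels of different genes were compared per kilobase of exon. In WT organoids the order of the mean log2 levels per kilobase was *Mt2* (15.86), *Mt1* (15.08), *Fth1* (13.07), *Ftl1* (12.36), *Tfrc* (11.56), *Slc11a2* (11.04), *Cybrd1* (10.89), *Slc39a4* (9.10), *Heph* (8.88) and *Slc40a1* (6.34). *Slc11a2* and *Cybrd1* differed by less than their SD of 0.25 and 0.26, and the other neighbours differed by more than the SD of either. The RNAs of the metal-binding proteins headed the order and that of the exporter closed it. *Mt1* was divided by 1246 exon bases, because an annotated transcript covers its introns, and *Mt2* by 588. Before the division *Mt1* was higher (15.40 against 15.10), so the order of these 2 genes rests on the annotation. The genes most like each iron gene over the 14 libraries were, as a description, *Gsta1* (Pearson r = 0.97), *Bak1* (0.96) and *Rbks* (0.95) for *Fth1*, *Rab21* (0.94), *Golga1* (0.93) and *Ddit4* (0.92) for *Tfrc*, and *Nupr1*, *Stbd1* and *Galnt6* (each 0.96) for *Cybrd1*. For *Slc40a1* they were *Hdc* (0.95), *B4galt4* (0.93) and *Meis2* (0.93), and for *Slc11a2* *Sema6a* (0.94), *Mdh2* (0.91) and *Dip2a* (0.90). For *Ftl1* they were *Cd46* (0.95), *Rwdd3* (0.92) and *Elac1* (0.89), and for *Heph* *Pdgfrb* (0.88), *Mien1* (0.87) and *Acss2* (0.87). Among the zinc genes, *Slc39a4* was most like *Prkaa2* (0.93), *Tmem8b* (0.92) and *Scaper* (0.92). After each other, *Mt1* was most like *Psmd3* (0.94) and *Nol7* (0.92), and *Mt2* most like *H2afj* (0.93) and *Pfn1* (0.92).

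The other genes of metal handling, 73 tested in 7 lists, moved in both directions. Of the 52 differences of single genes from these lists given here, 23 passed with lane in the fit, 25 did not and 4 turned in sign. With paired libraries treated as correlated 23 of 52 passed, among them none of the 14 of the double knockout against WT (adjusted p from 0.06 to 0.24 with an estimated correlation). The share of all tested genes past the threshold against WT was 26.7% in *Rnaseh2b* ΔIEC organoids, 19.1% in *Atg16l1* ΔIEC organoids and 16.1% in the double knockout, and the enterocyte markers (11 of 13 higher) rose in the same *Rnaseh2b* ΔIEC organoids. Their part in the counts below was not tested. Among 15 further genes of iron import, export and storage, 1 was higher and 3 were lower in *Rnaseh2b* ΔIEC than in WT organoids, the same share as over all tested genes (26.7%). *Ncoa4*, the receptor that brings ferritin to autophagy, was lower by a log2 difference of -0.59 (SE 0.10, limma adjusted p = 0.0013) there and by -0.52 (SE 0.08, adjusted p = 0.00097) in *Atg16l1* ΔIEC organoids. Its mean was 8.44 ± 0.10 in WT, 7.92 ± 0.04 in *Atg16l1* ΔIEC, 7.86 ± 0.07 in *Rnaseh2b* ΔIEC and 8.33 ± 0.19 in double-knockout organoids (SD), and the double knockout split by lane. Its libraries of lane 2 (8.08 and 8.31) were below every WT library and those of lane 1 (8.51 and 8.44) within the WT range, and all 8 libraries of lane 2 were below all 6 of lane 1, so for *Ncoa4* lane and genotype cannot be told apart against WT. Its response to *Rnaseh2b* deletion differed by 1.0 (SE 0.13, limma adjusted p = 0.00016) between the *Atg16l1* backgrounds, and by 0.58 with lane in the fit (adjusted p = 0.027). The differences of *Ncoa4* from WT were -0.31 (adjusted p = 0.1) and -0.24 (adjusted p = 0.15) once lane was included. The metalloreductase genes *Steap1* (-0.81, limma adjusted p = 0.0067) and *Steap2* (-0.45, adjusted p = 0.0056) were lower in *Rnaseh2b* ΔIEC organoids, though at -0.19 and -0.08 with lane in the fit (adjusted p = 0.49 and 0.47), and *Ltf*, the iron-binding lactoferrin, was higher (0.26, adjusted p = 0.0063), whereas *Steap3* was lower in *Atg16l1* ΔIEC organoids (-0.24, adjusted p = 0.022). In the double knockout *Ltf* alone passed against WT (0.26, limma adjusted p = 0.0054).

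Of 10 genes of iron regulation, 1 was higher and 3 lower in *Rnaseh2b* ΔIEC, 2 higher and 2 lower in *Atg16l1* ΔIEC, and 3 lower in double-knockout organoids, against 26.7%, 19.1% and 16.1% of all tested genes past the threshold. *Hif1a*, the oxygen-regulated transcription factor, rose by 0.40 (SE 0.06, limma adjusted p = 0.00035) in *Rnaseh2b* ΔIEC and by 0.44 (SE 0.05, adjusted p = 5.0e-05) in *Atg16l1* ΔIEC organoids. *Egln1*, the prolyl hydroxylase that marks it for degradation, was lower by -0.46 (SE 0.04, adjusted p = 2.0e-05) and -0.34 (SE 0.03, adjusted p = 4.0e-05). The effect of *Rnaseh2b* deletion changed between the *Atg16l1* backgrounds by -0.79 for *Hif1a* (SE 0.07, limma adjusted p = 1.4e-05) and by 0.71 for *Egln1* (SE 0.05, adjusted p = 4.6e-06), and all of these calls passed with lane in the fit (adjusted p from 0.00096 to 0.015). *Bmp2* (-0.49, limma adjusted p = 0.0092), a ligand that drives hepcidin, and *Arnt* (-0.16, adjusted p = 0.013), the partner of *Hif1a*, were also lower in *Rnaseh2b* ΔIEC organoids, but were at -0.22 (adjusted p = 0.36) and -0.11 (adjusted p = 0.26) with lane in the fit. In the double knockout *Hamp2*, a hepcidin gene (-0.42, limma adjusted p = 0.0078), *Fbxl5*, which degrades an iron regulatory protein (-0.20, adjusted p = 0.012), and *Arnt* (-0.16, adjusted p = 0.0085) were lower than in WT, and none of these passed with paired libraries treated as correlated (adjusted p = 0.12, 0.15 and 0.15 with an estimated correlation). The hepcidin gene *Hamp* itself was far below the filter, with a mean of -1.81 (log2) in both WT and double-knockout organoids, and was not tested.

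Of 17 genes of haem uptake, synthesis and breakdown, 7 were higher and 1 was lower in *Rnaseh2b* ΔIEC organoids. Over all tested genes, against WT, 14.4% were higher and 12.3% lower in *Rnaseh2b* ΔIEC organoids, 8.73% and 10.4% in *Atg16l1* ΔIEC organoids, and 8.1% and 8.01% in the double knockout. *Slc46a1*, a folate carrier that also carries haem, rose by 0.70 (SE 0.10, limma adjusted p = 0.00055), and the haem transporters *Flvcr1* and *Flvcr2* by 0.44 (SE 0.07, adjusted p = 0.0013) and 0.39 (SE 0.07, adjusted p = 0.0024). *Slc46a1* passed with lane in the fit (0.67, limma adjusted p = 0.021), and *Flvcr1* and *Flvcr2* did not (0.25 and 0.30, adjusted p = 0.091 and 0.094). *Hmox1*, which breaks haem down and frees its iron, went the other way, at -0.78 (SE 0.16, limma adjusted p = 0.0045), and at -0.58 (SE 0.13, adjusted p = 0.0095) in *Atg16l1* ΔIEC organoids. It read 8.94, 8.87, 9.05 and 9.08 in WT, 8.25, 8.48, 8.44 and 8.43 in *Atg16l1* ΔIEC, 8.14 and 8.26 in *Rnaseh2b* ΔIEC, and 8.51, 8.69, 9.20 and 9.21 in double-knockout libraries. The libraries of lane 1 were all above those of lane 2, and with lane in the fit its differences were -0.17 (limma adjusted p = 0.36) and 0.03 (adjusted p = 0.9), so for *Hmox1* too lane and genotype cannot be told apart. The difference of effects was 1.29 (SE 0.21, limma adjusted p = 0.00071) for *Hmox1* and 0.37 with lane (adjusted p = 0.14), and -0.63 (SE 0.13, adjusted p = 0.0034) for *Slc46a1* and -0.57 with lane (adjusted p = 0.09). In the double knockout 2 of 17 were higher than in WT, *Uros* (0.26, limma adjusted p = 0.0041), an enzyme of haem synthesis, and *Flvcr1* (0.22, adjusted p = 0.026). In *Atg16l1* ΔIEC organoids 4 were higher and 1 lower.

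Of the zinc carriers, the *Slc30* exporters held the larger count of calls in *Rnaseh2b* ΔIEC organoids. Of 9 *Slc30* genes, 4 were higher and 1 lower in *Rnaseh2b* ΔIEC than in WT organoids, against 14.4% higher and 12.3% lower over all tested genes. *Slc30a2*, which loads zinc into vesicles, read 9.26, 9.28, 9.29 and 9.23 in WT, 9.16, 9.03, 9.55 and 9.48 in *Atg16l1* ΔIEC, 10.67 and 10.49 in *Rnaseh2b* ΔIEC, and 9.86, 9.85, 8.37 and 8.52 in double-knockout libraries. It was higher by 1.32 (SE 0.35, limma adjusted p = 0.016) in *Rnaseh2b* ΔIEC organoids, and lower in the double knockout than in *Rnaseh2b* ΔIEC by -1.43 (SE 0.35, adjusted p = 0.011) or, within lane 2, by -0.72. Its difference from WT was -0.10 with lane in the fit (limma adjusted p = 0.75). Within the double knockout the libraries of lane 2 were above those of lane 1. *Slc30a3* (0.34, limma adjusted p = 0.025), *Slc30a1* (0.33, adjusted p = 0.013), the exporter of the cell surface, and *Slc30a6* (0.19, adjusted p = 0.011) were higher as well. None of the 4 passed with lane in the fit, where *Slc30a3* was at 0.48 (limma adjusted p = 0.054), *Slc30a1* at 0.16 (adjusted p = 0.38) and *Slc30a6* at 0.17 (adjusted p = 0.14), and of the 4 only *Slc30a2* passed with paired libraries treated as correlated (adjusted p = 0.041 with an estimated correlation, against 0.11 to 0.18). Of 10 further *Slc39* importers, *Slc39a10* alone differed in *Rnaseh2b* ΔIEC organoids (-0.37, limma adjusted p = 0.0023, and -0.20, adjusted p = 0.14, with lane). *Slc39a13* rose in *Atg16l1* ΔIEC (0.30, limma adjusted p = 0.00076) and in double-knockout organoids (0.21, adjusted p = 0.01), where *Slc39a11* was higher (0.18, adjusted p = 0.0022) and *Slc39a1* lower (-0.15, adjusted p = 0.026). Of the *Slc30* genes, *Slc30a9* alone was lower in *Atg16l1* ΔIEC (-0.18, limma adjusted p = 0.0057) and *Slc30a4* alone in the double knockout (-0.15, adjusted p = 0.017).

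*Mt4*, another metallothionein of the same cluster (8:94137197-94139031), was higher than in WT in *Rnaseh2b* ΔIEC (0.68, SE 0.12, limma adjusted p = 0.0021), *Atg16l1* ΔIEC (0.35, SE 0.10, adjusted p = 0.03) and in double-knockout organoids (0.52, SE 0.10, adjusted p = 0.0066). Lane in the fit moved these to 0.24 (limma adjusted p = 0.16), -0.09 (adjusted p = 0.59) and 0.30 (adjusted p = 0.018). *Mt3* was higher in the double knockout (0.16, SE 0.03, limma adjusted p = 0.007). *Mtf1*, the zinc sensor, differed from WT by 0.09, -0.05 and 0.10 in the order given for *Mt4* and passed in none (limma adjusted p = 0.11, 0.27 and 0.065). Of 9 genes of copper handling, *Ccs* (0.36, limma adjusted p = 0.0018) and *Atox1* (0.26, adjusted p = 0.0059), which are copper chaperones, were higher in *Rnaseh2b* ΔIEC organoids. *Ccs* passed with lane in the fit (0.33, limma adjusted p = 0.049) and *Atox1* did not (0.08, adjusted p = 0.38). *Atp7a*, the copper exporter, was lower there (-0.30, SE 0.05, limma adjusted p = 0.0018) and in *Atg16l1* ΔIEC organoids (-0.32, SE 0.04, adjusted p = 0.00038), and its difference of effects was 0.58 (SE 0.07, adjusted p = 8.3e-05). Lane in the fit ended the call in *Rnaseh2b* ΔIEC (-0.24, limma adjusted p = 0.066) but not in *Atg16l1* ΔIEC (-0.26, adjusted p = 0.035). In the double knockout *Cox17* (-0.34, SE 0.08, limma adjusted p = 0.013), a copper chaperone of the mitochondria, and *Slc31a1* (-0.18, SE 0.04, adjusted p = 0.01), the copper importer, were lower than in WT, and were at -0.30 (adjusted p = 0.054) and -0.19 (adjusted p = 0.018) with lane.

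**Figure D5:**
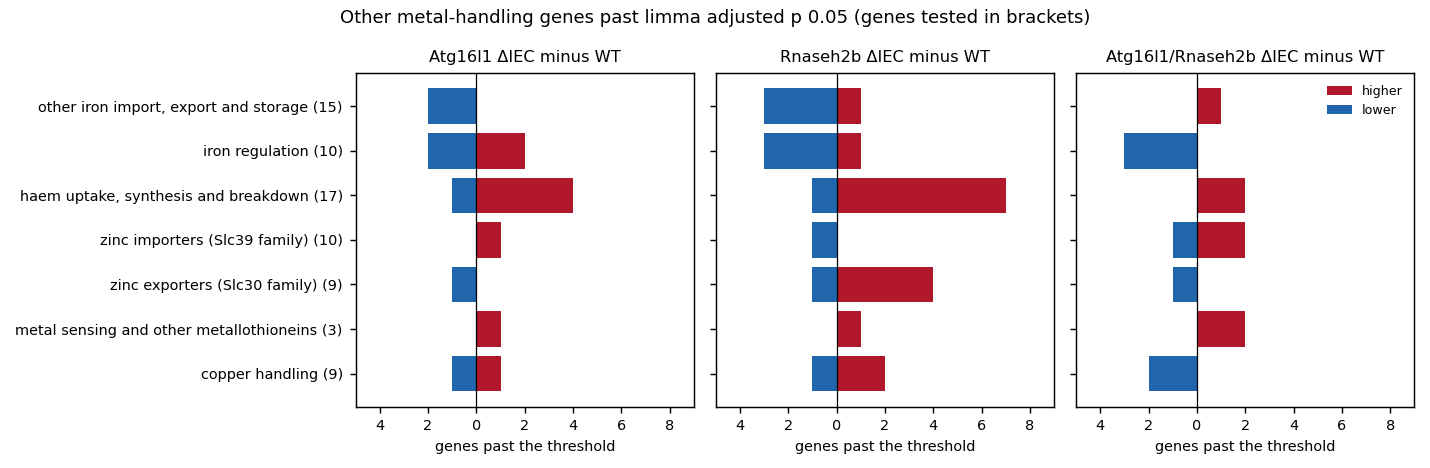
Number of genes higher (red, right) or lower (blue, left) than in WT at limma adjusted p 0.05 in 7 lists of metal-handling genes, in *Atg16l1* ΔIEC, *Rnaseh2b* ΔIEC and double-knockout organoids; the number tested stands in brackets. The longest bar is the 7 higher genes of haem handling in *Rnaseh2b* ΔIEC organoids, and 6 of the 7 lists hold both directions; the metal-sensing list has higher genes only.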

How the data were processed

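Small intestinal organoids of 4 genotypes gave 14 stranded single-end RNA-seq libraries. The submitters' processing notes name cutadapt, TopHat2, GRCm38, HTSeq and DESeq2. The authors deposited log2 values of 18781 genes, and what transformation made them is not given in the sources used here. The study's methods state that further *Rnaseh2b* ΔIEC samples were left out for their read numbers. Values of low genes are pulled together (median SD between libraries 0.00103 for genes at -3 to -2 and 0.151 at 6 to 7), so their differences are understated. No whole reads could be recovered and no count model was run. All 14 columns were matched to samples by library name, and 0 were left over.

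Genes whose mean reached 10 on the linear scale (3.322 on the log2 scale) were tested with limma 3.58.1 (R 4.3.3; lmFit, contrasts.fit, eBayes with trend), 1 mean per genotype over all 14 libraries, Benjamini-Hochberg adjusted over the 12802 genes at 0.05. The genes, lists and measures were chosen with earlier results of these data known. Named are all 10 genes, of each further list at most the 4 genes with the largest differences past the threshold in a comparison, and for each gene the 3 most correlated genes. Alternatives were other filters, pseudocounts of 1 and 5, upper quartile and total scaling, lane, sex or replicate number as covariates, fits of the compared groups or of 1 lane, paired libraries correlated (consensus 0.645) or averaged, and each library left out. The method was tested on simulated data in which libraries were drawn independently, without lanes or pairs. That test therefore does not cover lane or the correlation of paired libraries. Sequences come from GENCODE M21 and RefSeq. Figures were drawn with matplotlib 3.10.9.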

Additional observations from a re-analysis of the deposited data

Results flagged for a closer look

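The effect of *Rnaseh2b* deletion differed between the intact and the deleted *Atg16l1* background, by a test of that difference, in 4 of the 10 genes. The log2 differences of effects were -0.62 for *Fth1*, 0.62 for *Tfrc*, -0.58 for *Mt1* and 0.93 for *Cybrd1* (limma adjusted p = 0.00059, 0.00085, 0.031 and 0.043), against 35.1% of all tested genes past the threshold. Of the further metal genes named, the same test was passed by *Hmox1* (1.29), *Ncoa4* (1.0), *Egln1* (0.71), *Atp7a* (0.58), *Hif1a* (-0.79), *Slc46a1* (-0.63) and *Slc30a2* (-1.47). With lane in the fit the sign of *Cybrd1* (-0.35) and *Slc30a2* (0.65) turned. The double knockout kept 0.475-fold of the WT level of *Atg16l1*, and its loss of *Rnaseh2b* was smaller than in the single knockout (log2 -0.81 against -1.36). The part of this unequal loss of the target RNAs in these values was not tested. The *Rnaseh2b* ΔIEC group holds 2 libraries, which were treated as a single pair by their numbers. Whether they deviate together cannot be seen in a group of 2.

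The *Ftl1* value of *Atg16l1* ΔIEC replicate 1, 12.66, stood apart from the other 3 libraries of its genotype by 0.841 of the group's range, past the 95% limit of Dixon for groups of 4. It was 1 of 30 groups looked at, and chance puts about 1 in 20 groups past that limit.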

How the results depend on the processing

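The 19 calls of the 10 genes all passed under a filter of 50, pseudocounts of 1 and 5 and total scaling. Upper quartile scaling kept 18, sex as a covariate 16, no filter 15 of 19, fits of only the compared groups 11 of 15, the replicate block 12, lane as a covariate 8 and an estimated pair correlation 4 of 19, and averaging the pairs 0 of 19. In the latter fit 0 of 12802 genes passed in *Rnaseh2b* ΔIEC against WT while 2103 had an unadjusted p under 0.05, so it says little of any single gene. For the counts of genes past the threshold, lane as a covariate gave 3 in place of 5 in *Rnaseh2b* ΔIEC against WT, 3 in place of 1 in the double knockout against *Atg16l1* ΔIEC, 2 in place of 1 between the single knockouts and 1 in place of 4 in the difference of effects. The replicate block gave 1 in the double knockout against WT, 0 between the single knockouts and 2 in the difference of effects. Whether the numbers pair the libraries is not given in the labels. Of 18 pairs of libraries with the same number, 7 had correlated deviations over 0.1 (range -0.41 to 0.46). Replicate 1 of the knockout genotypes correlated at 0.44, 0.45 and 0.46. Deviations within a genotype are tied to each other, so these values are not independent and do not settle the pairing. The cause of the lost calls was not tested. Fits of only the compared groups gave 1 in the double knockout against WT and 2 between the single knockouts, no filter gave 1 in the double knockout against WT, and upper quartile scaling gave 0 between the single knockouts. Within lane 2 the counts were 1 for the double knockout against *Rnaseh2b* ΔIEC, 4 against *Atg16l1* ΔIEC and 2 between the single knockouts. An estimated pair correlation gave 2 in *Rnaseh2b* ΔIEC against WT, 2 in the difference of effects and 0 in the other 5 comparisons, and averaging the pairs gave 0 in all 7, with fewer values per group. Leaving out 1 library moved the counts from 1 to 5 in *Rnaseh2b* ΔIEC against WT (1 without its replicate 1, 3 without its replicate 2 or WT replicate 2), from 1 to 4 in the double knockout against WT (1 without its replicate 1 or WT replicate 1 or 2), from 0 to 3 against *Rnaseh2b* ΔIEC (0 without either *Rnaseh2b* ΔIEC library), from 1 to 2 against *Atg16l1* ΔIEC (2 without *Atg16l1* ΔIEC replicate 1), from 0 to 1 between the single knockouts (0 without either *Rnaseh2b* ΔIEC library or *Atg16l1* ΔIEC replicate 1, 2 or 4) and from 2 to 5 in the difference of effects (2 without either *Rnaseh2b* ΔIEC library, WT replicate 1 or 2, or replicate 3 or 4 of *Atg16l1* ΔIEC or of the double knockout). In *Atg16l1* ΔIEC against WT the count was 2 without any 1 library.

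Signs turned mainly with lane as a covariate: *Cybrd1* to 0.032 for *Rnaseh2b* ΔIEC, 0.28 for *Atg16l1* ΔIEC and -0.35 in the difference of effects, *Mt1* to -0.089 in *Atg16l1* ΔIEC, *Ftl1* to 0.047 in *Rnaseh2b* ΔIEC, *Mt4* to -0.089 and *Hmox1* to 0.027 in *Atg16l1* ΔIEC, and *Slc30a2* to -0.099 in *Rnaseh2b* ΔIEC and 0.65 in the difference of effects. With lane or within a lane, *Tfrc* turned to -0.034 in the double knockout against WT, and against the single knockouts *Slc40a1* turned to -0.048 and -0.40 and *Fth1* to 0.043. Without 1 library *Tfrc* in the double knockout against WT ranged from -0.036 to 0.0455 and *Fth1* against *Atg16l1* ΔIEC from -0.065 to 0.012. Of 52 values of the further genes, lane as a covariate kept 23, an estimated pair correlation 23 and averaging the pairs 0, and 5 had no value under the filter of 50. The depth is unknown, so its part in these limits was not tested.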
